A study of Mus musculus with 9 samples.

Results

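Circular RNAs (circRNAs, here called rings) from 4 host genes of cell adhesion and the cytoskeleton, Epha2, Arhgap10, Rsu1 and Ehbp1, were described in mouse liver after acetaminophen (APAP). The members were all rings that the deposited table assigned to these 4 host genes, 23 of 11312 rings, from 4 of 3929 host genes. Epha2 had 1 ring, Arhgap10 11, Rsu1 3 and Ehbp1 8. The 4 genes were chosen by their back-splice reads, which were higher in the APAP libraries than in the control libraries, so the values of that comparison are given as a description, with no test. The same holds for dmPGE2+APAP against control, which rests on the same control libraries. The mice were wild-type C57 BL6 animals, 8 weeks old and about 20 g in weight. There were 3 groups of 3 liver libraries: saline controls, APAP (500 mg/kg, injected into the abdominal cavity) and dmPGE2+APAP (300 µg/kg dmPGE2, given 1 hour before the same dose of APAP). Tissue was collected 6 hours after APAP. The labels do not say whether each library came from its own animal, and p-values therefore reflect the spread of these libraries, which may be technical.

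In a circRNA the end of a downstream exon is joined back to the start of an upstream exon of the same pre-mRNA, and the read that crosses this back-splice is what identifies the ring. Rings have no free ends, resist exonucleases and compete with linear splicing of their host transcript. APAP is turned by hepatocytes into a reactive metabolite that depletes glutathione and kills the cells around the central veins, while dmPGE2 is a stabilised analogue of a prostaglandin. The 4 hosts act at neighbouring points of one system. Epha2 encodes a receptor tyrosine kinase that binds ephrins on adjacent cells and signals to the actin skeleton. Arhgap10 encodes a GTPase-activating protein, which switches small GTPases off. Rsu1 encodes a leucine-rich repeat protein that binds PINCH in the complex that links integrins to actin. Ehbp1 encodes an adaptor between EHD-driven endocytic recycling and actin filaments.

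The sequences below are the back-splice joints of the rings that carried most reads of each host, with 1 or 2 partners that share an edge with them. Each joint holds the last 20 bases of the ring's last exon in lower case and the first 20 bases of its first exon in capitals, 5′ to 3′ on the strand of the gene. They were read from GENCODE M21 transcripts (GRCm38), after the edges of each ring had been placed on exon ends.
Epha2 mmu_circ_0001290: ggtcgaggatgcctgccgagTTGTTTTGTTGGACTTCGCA
Arhgap10 mmu_circ_0001692: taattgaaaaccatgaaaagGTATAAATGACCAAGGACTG
Arhgap10 mmu_circ_0001691: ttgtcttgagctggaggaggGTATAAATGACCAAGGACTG
Arhgap10 novel_circ_0013830: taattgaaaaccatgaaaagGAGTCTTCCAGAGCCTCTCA
Rsu1 novel_circ_0007903: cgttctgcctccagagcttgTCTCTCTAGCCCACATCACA
Rsu1 novel_circ_0007902: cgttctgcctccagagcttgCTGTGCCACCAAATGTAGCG
Ehbp1 mmu_circ_0000245: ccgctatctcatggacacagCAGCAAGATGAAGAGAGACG
Ehbp1 novel_circ_0000966: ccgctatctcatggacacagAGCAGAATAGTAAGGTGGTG
None of the 40-base joints shown was found in any of 141767 annotated linear transcripts (0 matches each). The shared lower-case or capital stretches show where rings of one gene differ at only one edge: mmu_circ_0001692 and mmu_circ_0001691 start alike, and mmu_circ_0001692 and novel_circ_0013830 end alike.

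Of the 23 rings, 21 had both edges on exon ends of 1 annotated transcript, and those 21 spanned coding exons only. Exon ranges and transcript lengths here count every annotated exon between the edges, and the inner make-up of the rings was not observed. The deposited spliced length differed for some rings, such as 295 against 564 bases for novel_circ_0013828. The Epha2 ring mmu_circ_0001290 (chr4:141306514-141309080, plus strand) joined exons 2 and 3 of 17, which encode part of the receptor's outward-facing end. Its length from the transcript was 744 bases, equal to the deposited spliced length and a multiple of 3. A stretch of it is printed because this ring alone holds all Epha2 reads. The stretch runs through the back-splice: the last 100 bases of exon 3, all 68 bases of exon 2 in capitals, and the first 100 bases of exon 3, which is 676 bases long.
mmu_circ_0001290: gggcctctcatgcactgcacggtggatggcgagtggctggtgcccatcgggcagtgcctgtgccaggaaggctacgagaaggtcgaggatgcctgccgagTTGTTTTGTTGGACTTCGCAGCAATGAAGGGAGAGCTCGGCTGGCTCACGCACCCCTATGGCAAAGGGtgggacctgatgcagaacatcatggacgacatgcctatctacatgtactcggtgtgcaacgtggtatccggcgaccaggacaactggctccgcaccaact
The leading Arhgap10 ring, mmu_circ_0001692 (chr8:77344640-77365160, minus strand), held exons 14 to 18 of 23, 488 bases. The leading Rsu1 ring, novel_circ_0007903 (chr2:13216770-13241795, minus strand), spanned exons 3 to 7 of 9. Its transcript length was 489 bases against a deposited length of 284 bases, and the table lists 3 exons for it, with 287 bases in all. The leading Ehbp1 ring, mmu_circ_0000245 (chr11:22053432-22068506, minus strand), held exons 16 to 21 of 25, 742 bases.

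The introns beside these rings were long in 3 of the 4 genes. Over 9913 rings that could be placed with both introns, the median intron was 6483 bases upstream and 4858 bases downstream. The leading ring of Arhgap10 lay between introns of 17564 and 33758 bases, that of Rsu1 between 29115 and 46639 bases, and that of Ehbp1 between 21018 and 38477 bases. The Epha2 ring lay between introns of 5079 and 7506 bases, the first below and the second above the median.

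The depth of the libraries set the precision of every value. The libraries held between 69268 and 154449 back-splice reads, except control 3 with 4362. In control 3, 1 read was worth 229 counts per 1000000 back-splice reads of the library (CPM), against 6.47 to 14.4 CPM in the other 8 libraries. The smallest count above 0 was 2 in all 9 libraries, so a library listed at 0 could still have held 1 read. Control 3 therefore says little about these hosts, and fitted changes of host genes against control are given with and without it.

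Epha2 back-splice reads were 10, 16 and 0 in the 3 control libraries, 59, 82 and 55 in the APAP libraries and 109, 89 and 115 in the dmPGE2+APAP libraries. Scaled to depth, this was 64.7, 123 and 0 CPM in the controls, 543, 749 and 794 CPM with APAP and 904, 898 and 1002 CPM with dmPGE2+APAP. The 3 groups did not overlap and stood in the order control, APAP, dmPGE2+APAP. A gap to the controls is favoured by the choice of the genes, here and for every host below. Its share over all host genes is not given. The means were 62.6 ± 61.6, 695 ± 134 and 935 ± 58.2 CPM (SD, n = 3). The level without control 3 was 93.9 ± 41.3 CPM (SD, n = 2) in control. In a bulk tissue such as this, fewer cells of a type and less RNA per cell cannot be told apart, here and for every host below.

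Against control, APAP gave an Epha2 log2 fold change of 2.93 ± 0.55 SE (2.83 without control 3), a description of the contrast that chose the gene. The dmPGE2+APAP libraries were not used to choose it, but the controls they are set against were, so that comparison is described without a test as well. Against control, the Epha2 log2 fold change with dmPGE2+APAP was 3.38 ± 0.56 SE, a 10.4-fold ratio, and 3.28 without control 3. The comparison of dmPGE2+APAP with APAP uses the APAP libraries of the choice, and members picked for high APAP values lean downward in it. Against APAP the Epha2 log2 fold change was 0.46 ± 0.44 SE with a 95% interval from -0.40 to 1.31, and the adjusted p was 0.9998 by edgeR. None of the 4 members was called in that comparison (0 of 4, where 0.127% of all tested host genes were called). DESeq2 and limma-voom also called 0 of 4, and 1 of 4, Arhgap10, had a p under 0.05 before adjustment by edgeR, as did 64 of 2358 host genes (2.71%). Without control 3, which enters the shared estimate of spread, 2 of 4 did, Arhgap10 and Ehbp1, and 79 of 2358 (3.35%). For Epha2, 3 of 3 dmPGE2+APAP libraries lay above all 3 APAP libraries, as they did for 5.47% of all tested host genes.

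**Figure D1:**
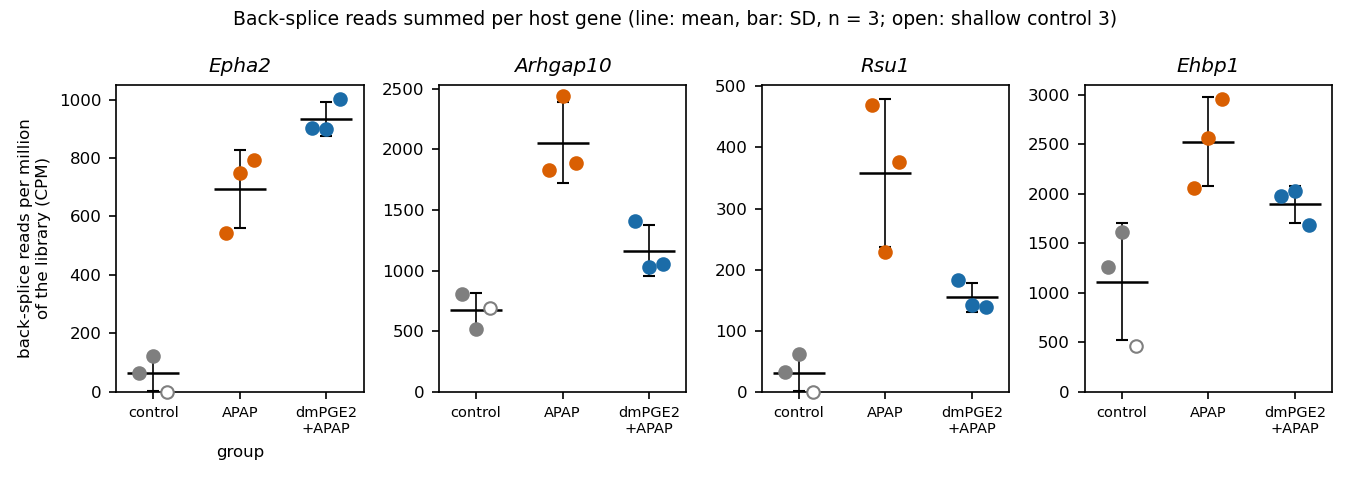
Back-splice reads per host gene in each of the 9 libraries, in CPM (y axes start at 0 and differ between panels). Each point is a library, the line is the mean of 3, the bar is the SD, and the open point is control 3. Epha2 stood highest with dmPGE2+APAP, and Arhgap10, Rsu1 and Ehbp1 stood highest in APAP.

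Arhgap10 was the most varied of the 4 hosts, with 11 rings. Its summed reads were 125, 67 and 3 in the controls, 199, 267 and 131 with APAP and 170, 102 and 121 with dmPGE2+APAP. In CPM these were 809, 516 and 688, then 1831, 2439 and 1891, then 1410, 1029 and 1054. All 3 dmPGE2+APAP libraries lay between the control and the APAP libraries, with no overlap on either side. Of all tested host genes, 4.54% had all dmPGE2+APAP libraries below the APAP libraries. The means were 671 ± 148, 2054 ± 335 and 1165 ± 213 CPM (SD, n = 3), and 662 ± 208 CPM (SD, n = 2) for control without control 3.

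Set against APAP, the Arhgap10 sum with dmPGE2+APAP had a log2 fold change of -0.80 ± 0.33 SE, with a 95% interval from -1.44 to -0.15. Its p was 0.0158 before and 0.9998 after adjustment by edgeR, so it did not pass, and its direction is the one that the choice of the gene favours. Set against control, the log2 fold change was 0.87 ± 0.36 SE (0.77 without control 3). For APAP against control the log2 fold change was 1.67 ± 0.36 SE, or 1.58 without control 3.

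Most Arhgap10 rings reused a few exon edges in the second part of the gene. The 3 rings that end at exon 18 began at exon 14 (mmu_circ_0001692), exon 15 (novel_circ_0013831) or exon 16 (novel_circ_0013830). Together they had 97, 33 and 3 reads in the controls, 124, 139 and 87 with APAP and 107, 58 and 69 with dmPGE2+APAP. The 3 rings that end at exon 19 began at the same 3 exons and had 0, 17 and 0 reads in the controls, 46, 67 and 19 with APAP and 26, 19 and 27 with dmPGE2+APAP. Rings ending at exon 19 were thus read in 1 of 3 control libraries and in 6 of 6 libraries given APAP, a split that the choice of the gene favours. The 0 of control 3 says little, since 1 read there is worth 229 CPM. The 3 reads of control 3 all belonged to novel_circ_0013830, where they count as 688 CPM.

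Some single Arhgap10 rings lay lower with dmPGE2+APAP than with APAP, as the sum did, with different margins. In others these groups overlapped. The leading ring mmu_circ_0001692 had 83, 23 and 0 reads in the controls, 77, 86 and 72 with APAP and 84, 48 and 51 with dmPGE2+APAP. In CPM its APAP libraries (709, 786 and 1039) lay above its dmPGE2+APAP libraries (697, 484 and 444), the nearest pair being 709 and 697 CPM. Control 1, at 537 CPM, was inside the dmPGE2+APAP range. The longer ring mmu_circ_0001691, which adds exon 19, had 0, 10 and 0 reads in the controls, 28, 50 and 16 with APAP and 26, 15 and 14 with dmPGE2+APAP.

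For novel_circ_0013830, exons 16 to 18, the reads were 9, 5 and 3 in the controls, 37, 40 and 11 with APAP and 17, 6 and 8 with dmPGE2+APAP. The smallest APAP value, 159 CPM, was above the largest dmPGE2+APAP value, 141 CPM. Its log2 fold change with dmPGE2+APAP against APAP was -1.62 ± 0.81 SE, with a p of 0.0439 before and 0.9999 after adjustment by edgeR. For mmu_circ_0001691 the same comparison gave -0.90 ± 0.76 SE and for mmu_circ_0001692 -0.55 ± 0.46 SE, both with an adjusted p of 0.9999 by edgeR.

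A ring outside this stretch, novel_circ_0013835 of exons 9 to 13, had the second most reads of the 11 rings, 207. It had 28, 13 and 0 reads in the controls, 27, 61 and 14 with APAP and 18, 25 and 21 with dmPGE2+APAP, and its 2 treated groups overlapped. The ring of exons 15 to 19, novel_circ_0013828, was read in the 3 APAP libraries alone, at 7, 7 and 3 reads, and was listed at 0 in the other 6. With 17 reads in all it did not reach the filter for testing. The other 6 rings had between 3 and 57 reads in all 9 libraries together.

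**Figure D2:**
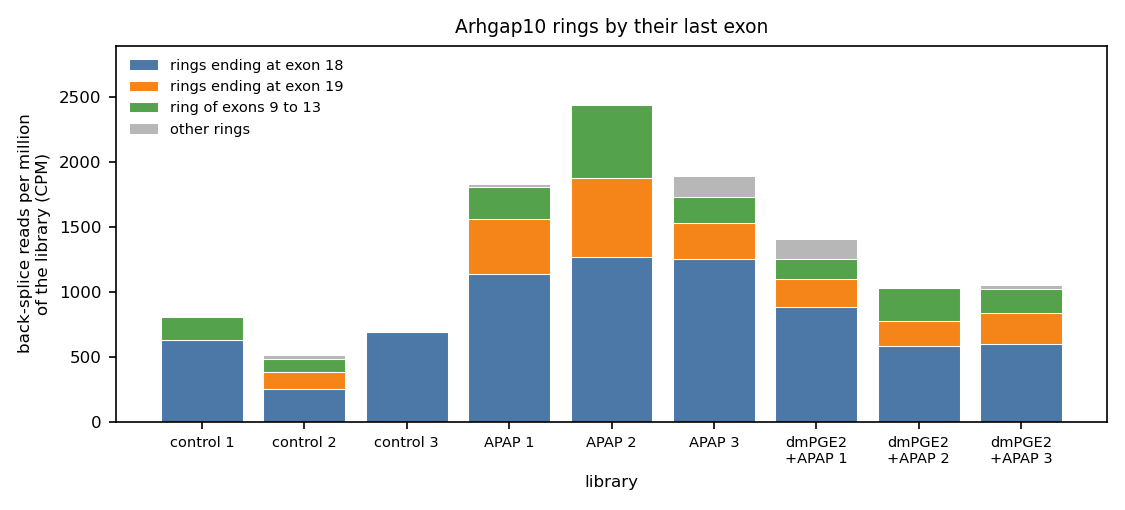
Arhgap10 back-splice reads in each library, in CPM, stacked by the last exon of the ring. Rings ending at exon 18 (blue) were the largest class in each library, and rings ending at exon 19 (orange) were read in control 2 and in all 6 libraries given APAP.

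Rsu1 gave few reads, 5, 8 and 0 in the controls, 51, 25 and 26 with APAP and 22, 14 and 16 with dmPGE2+APAP. In CPM the values were 32.4, 61.6 and 0, then 469, 228 and 375, then 183, 141 and 139. The dmPGE2+APAP libraries again lay between the other groups with no overlap. All dmPGE2+APAP libraries were below the APAP libraries in 4.54% of all tested host genes, and the choice of the gene favours that direction. The means were 31.3 ± 30.8, 358 ± 121 and 154 ± 24.4 CPM (SD, n = 3), and 47.0 ± 20.6 CPM (SD, n = 2) for control without control 3.

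All 3 Rsu1 rings end at exon 7 and differ in the exon at which they start. The ring from exon 3, novel_circ_0007903, had 0, 8 and 0 reads in the controls, 51, 25 and 24 with APAP and 17, 14 and 7 with dmPGE2+APAP. The ring from exon 4, novel_circ_0007902, held the 5 reads of control 1 and otherwise 2 reads in APAP 3 and 9 reads with dmPGE2+APAP 3. The ring from exon 5, novel_circ_0007901, had 5 reads with dmPGE2+APAP 1. The leading ring thus held 100, 100 and 92.3% of the Rsu1 reads with APAP and 77.3, 100 and 43.8% with dmPGE2+APAP.

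The fitted Rsu1 changes were wide. In dmPGE2+APAP against APAP the sum had a log2 fold change of -1.18 ± 0.81 SE, with a 95% interval from -2.78 to 0.42 and an adjusted p of 0.9998 by edgeR. Set against control, the sum with dmPGE2+APAP had 1.80 ± 0.95 SE (1.68 without control 3). For the leading ring novel_circ_0007903 against APAP it was -1.54 ± 0.80 SE, with a p of 0.0544 before and 0.9999 after adjustment by edgeR. In APAP against control the sum had 2.98 ± 0.97 SE, or 2.86 without control 3. For novel_circ_0007903 that description rests on control 2, the only control library with reads: its log2 fold change was 3.55 with all libraries, 3.45 without control 3 and 8.06 without control 2, where the controls are listed at 0 and the fitted value is no bound.

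Ehbp1 had the most reads of the 4 hosts and the smallest differences. Its sums were 194, 210 and 2 reads in the controls, 224, 280 and 205 with APAP and 238, 201 and 193 with dmPGE2+APAP. In CPM these were 1256, 1616 and 459, then 2061, 2558 and 2960, then 1975, 2028 and 1681. The nearest APAP and dmPGE2+APAP libraries were 2061 and 2028 CPM, and the nearest control library was 1616 CPM. The means were 1110 ± 592, 2526 ± 450 and 1895 ± 187 CPM (SD, n = 3), and 1436 ± 254 CPM (SD, n = 2) for control without control 3.

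The Ehbp1 sum with dmPGE2+APAP against APAP had a log2 fold change of -0.39 ± 0.29 SE, with a 95% interval from -0.96 to 0.19 and an adjusted p of 0.9998 by edgeR. Against control it was 0.60 ± 0.31 SE, and 0.37 without control 3. In APAP against control it was 0.99 ± 0.31 SE, or 0.76 without control 3. Ehbp1 is the host whose values moved most with control 3, where it had 2 reads.

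One ring carried most of the Ehbp1 signal. The ring mmu_circ_0000245 had 130, 143 and 2 reads in the controls, 161, 234 and 154 with APAP and 165, 125 and 160 with dmPGE2+APAP. In CPM its APAP libraries (1482, 2138 and 2223) lay above its dmPGE2+APAP libraries (1369, 1261 and 1394), and those above its controls (842, 1100 and 459). The ring's log2 fold change with dmPGE2+APAP against APAP was -0.46 ± 0.37 SE, with an adjusted p of 0.9999 by edgeR.

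The next 4 Ehbp1 rings showed no such order, and both treated groups overlapped in each. The ring of exons 6 and 7, novel_circ_0000971, had 26, 31 and 0 reads in the controls, 13, 20 and 16 with APAP and 19, 20 and 5 with dmPGE2+APAP. The ring novel_circ_0000966, exons 18 to 21, shares its last exon with the leading ring and had 16, 12 and 0 reads in the controls, 12, 5 and 7 with APAP and 33, 14 and 11 with dmPGE2+APAP. The ring novel_circ_0000967 had 15, 20 and 0 reads in the controls, 28, 9 and 12 with APAP and 21, 36 and 7 with dmPGE2+APAP. Its edge lies 3 bases inside exon 16, whose first bases are cag, the same letters that end exon 21 in the printed joint. The ring novel_circ_0000970 had 36 reads in all, and the last 3 Ehbp1 rings had 17, 6 and 6.

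Across the 4 hosts, the order of the groups separated Epha2 from the rest. In dmPGE2+APAP against APAP, 1 of 4 sums had all libraries higher and 3 of 4 had all libraries lower, where 5.47% of all tested host genes were apart upward and 4.54% downward. Members picked for high APAP and low control values lean downward against APAP by that choice. Epha2 alone went against the lean in the comparison with APAP, without passing the test.

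Of the 23 rings, 13 reached the filter of at least 5 reads in at least 3 libraries, 1 of Epha2, 6 of Arhgap10, 1 of Rsu1 and 5 of Ehbp1. In dmPGE2+APAP against APAP, edgeR called 0 of these 13, against 0.0693% of 4331 tested rings, and 1 had a p under 0.05 before adjustment, as did 162 of all 4331 (3.74%). Without control 3 it was 3 of 13, namely novel_circ_0013830, novel_circ_0007903 and mmu_circ_0000245, all lower, and 140 of 4331 (3.23%). DESeq2 and limma-voom called 0 of all tested rings there. By library ranges, 1 of 13 was apart upward and 5 of 13 downward, where 5.03% and 4.13% of all tested rings were. Rings of genes picked for high APAP reads lean downward against APAP by that choice, so the lower rings are a description. Against control, the Epha2 ring mmu_circ_0001290 had a log2 fold change of 3.42 ± 0.56 SE with dmPGE2+APAP (3.28 without control 3), a description like that of its host.

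**Figure D3:**
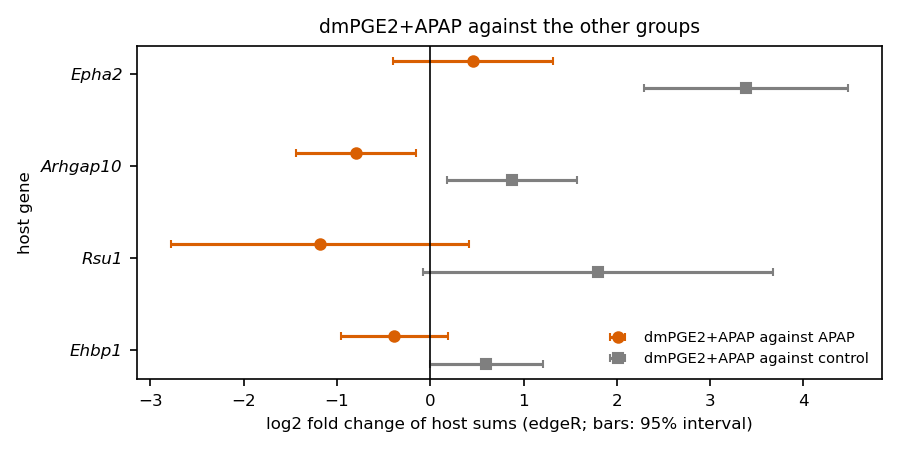
Fitted log2 fold change of the 4 host sums with dmPGE2+APAP against APAP (circles) and against control (squares), with 95% intervals of the fit. The squares rest on the control libraries that helped choose the genes and are a description. The Epha2 interval against control runs from 2.29 to 4.48, and the Arhgap10 interval against APAP runs from -1.44 to -0.15.

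The table also lists the reads at the 2 sites of a back-splice that do not cross it, called non-junction reads. A library has a value there only where it also has reads across the joint. These reads can come from linear transcripts or from any other ring through the same sites. They were not used to choose the genes. At the Epha2 ring they were 98 and 115 in control 1 and 2, 543, 413 and 445 with APAP and 471, 269 and 275 with dmPGE2+APAP. All libraries given APAP were above the controls, and dmPGE2+APAP 1 lay inside the APAP range. How common such gaps in non-junction reads are over all rings was not tested, here or at the other hosts.

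Per 1000000 non-junction reads of the usable lists, the Epha2 site had 261 ± 20.0 in control (SD, n = 2) and 1233 ± 556 in APAP (SD, n = 3), a 4.73-fold ratio of means. The two-sided exact permutation test gave p = 0.1, the smallest that 2 libraries against 3 allow. In dmPGE2+APAP the mean was 859 ± 165 (SD, n = 3), against APAP p = 0.5 by the exact permutation test. On a common scale, per 1000000 non-junction reads of the 1125 rings with lists in all 8 deeper libraries, the Epha2 site had 5053 ± 1433 with dmPGE2+APAP and 7447 ± 630 in APAP (SD, n = 3). There the 3 dmPGE2+APAP libraries lay below all APAP libraries, with p = 0.1 by the exact permutation test, the smallest that 3 against 3 allow. This scale was chosen after the totals of the usable lists had been seen to range from 216192 to 690353 reads.

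At the leading Arhgap10 ring the non-junction reads were 22 and 23 in control 1 and 2, 64, 49 and 63 with APAP and 62, 32 and 32 with dmPGE2+APAP. The APAP libraries lay above the controls, with a 2.90-fold ratio of scaled means and p = 0.2 by the exact permutation test (p = 0.1, the smallest possible, on the common scale). In dmPGE2+APAP the scaled mean was 0.650 times that of APAP, with p = 0.4 by the exact permutation test, and the groups overlapped.

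Rsu1 and Ehbp1 behaved differently at the non-junction reads. At novel_circ_0007903 of Rsu1 they were 17 in control 2, 23, 22 and 9 with APAP and 29, 31 and 25 with dmPGE2+APAP. With 1 control library there was no test against control, and the scaled means were 42.1 ± 9.55 in APAP (SD, n = 3) against 40.7 in control 2. Between dmPGE2+APAP and APAP the ratio of scaled means was 1.87, with p = 0.2 by the exact permutation test, and 1.49 with p = 0.1 on the common scale.

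At mmu_circ_0000245 of Ehbp1 the non-junction reads were 12, 4 and 20 in the controls, 22, 13 and 10 with APAP and 31, 34 and 33 with dmPGE2+APAP. The dmPGE2+APAP libraries were above all APAP libraries, with a 2.59-fold ratio of scaled means and p = 0.1 by the exact permutation test, the smallest possible. On the common scale the ratio was 2.08 (exact permutation p = 0.1). Between APAP and control the ratio of scaled means was 0.810, with APAP lower. The mean of the log2 values, which the test compares, was 0.22 higher in APAP, with p = 0.7 by the exact permutation test. On the common scale, which leaves out control 3, the ratio was 2.07 with p = 0.3 by the exact permutation test.

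**Figure D4:**
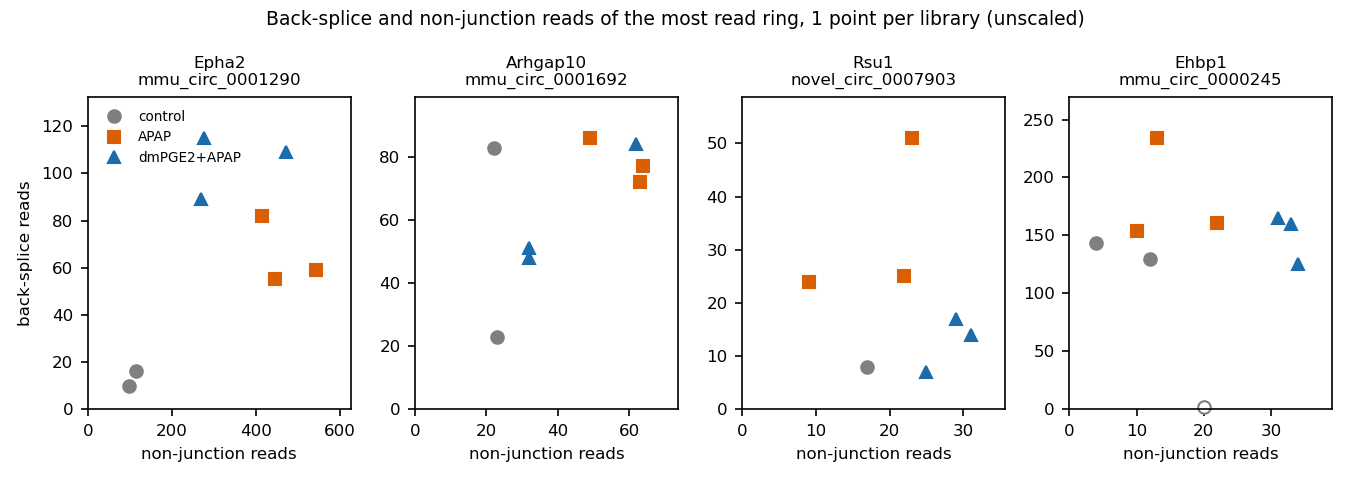
Back-splice reads (y) against non-junction reads (x) at the most read ring of each host, unscaled, 1 point per library that has both values. At Epha2 the dmPGE2+APAP libraries (triangles) had 89 to 115 back-splice reads, above the 55 to 82 of APAP (squares), and at Rsu1 and Ehbp1 they had more non-junction reads than APAP.

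Set together, both kinds of read give the percent of reads at a ring's sites that cross its back-splice. No test was made of this percent, since it holds the reads that chose the genes. At the Epha2 ring it was 9.26 and 12.2% in the controls, 9.80, 16.6 and 11.0% with APAP and 18.8, 24.9 and 29.5% with dmPGE2+APAP. Control and APAP overlapped, and the 3 dmPGE2+APAP libraries lay above both. The means were 12.5 ± 3.61% with APAP and 24.4 ± 5.36% with dmPGE2+APAP (SD, n = 3).

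At the leading Rsu1 ring the order of the treated groups was the opposite. The percent was 32.0% in control 2, 68.9, 53.2 and 72.7% with APAP and 37.0, 31.1 and 21.9% with dmPGE2+APAP. The means were 65.0 ± 10.4% and 30.0 ± 7.60% (SD, n = 3), with no overlap and with the 1 control library beside dmPGE2+APAP. The values of the treated groups rest on 32 to 74 reads a library. Their 95% Wilson intervals reach from 39.2 to 84.9% with APAP and from 11.0 to 51.4% with dmPGE2+APAP. Control 2 rests on 8 back-splice and 17 non-junction reads, with an interval from 17.2 to 51.6%. The intervals cover counting error only.

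The leading Ehbp1 ring was nearly all back-splice reads outside control 3, with 91.5 and 97.3% in control 1 and 2, 88.0, 94.7 and 93.9% with APAP and 84.2, 78.6 and 82.9% with dmPGE2+APAP. The dmPGE2+APAP libraries were the lowest of these 8, and control 3, with 2 of 22 reads crossing, was at 9.09%. At the leading Arhgap10 ring the percent was 79.0 and 50.0% in the controls, 54.6, 63.7 and 53.3% with APAP and 57.5, 60.0 and 61.4% with dmPGE2+APAP, and all groups overlapped.

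As a background, 1232 rings had lists in all 6 libraries given APAP. Of these, 7.55% had all dmPGE2+APAP libraries above the APAP libraries in this percent and 4.46% had all below. Among the 4 leading rings 1 of 4 was above, 2 of 4 were below and 1 overlapped. In every other member ring with lists in all 6 libraries given APAP the groups overlapped. The median difference over the 1232 rings was 1.18 percentage points, with the 5th to 95th percentile from -14.2 to 17.1 points. The Epha2 ring, at 11.9 points, and the leading Ehbp1 ring, at -10.3 points, were inside that span. The Rsu1 ring, at -35.0 points, was outside. So was another Ehbp1 ring, novel_circ_0000971, at -34.5 points, although its groups overlapped. Rings of genes picked for high APAP back-splice reads lean downward in this percent, so the span serves as a description only. Over the 1125 rings with lists in all 8 deeper libraries together, the percent was 51.0 and 49.7% in the controls, 44.0, 47.3 and 37.8% with APAP and 45.7, 44.1 and 46.1% with dmPGE2+APAP.

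**Figure D5:**
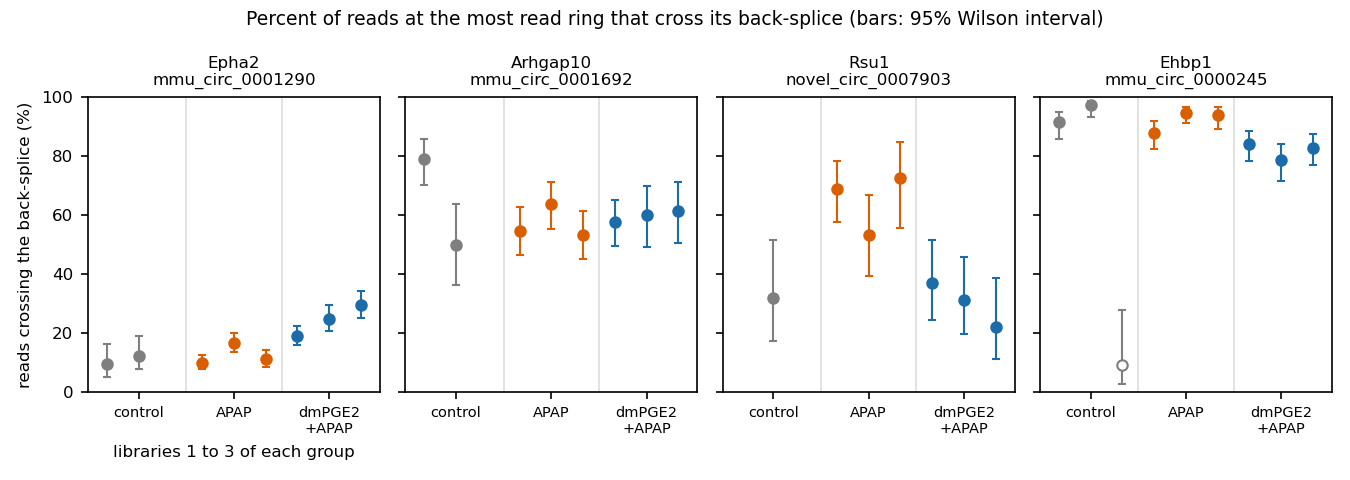
Percent of reads at the sites of the most read ring that cross its back-splice, 1 point per library with a value, with 95% Wilson intervals. The dmPGE2+APAP points are the highest at Epha2 and the lowest of the treated groups at Rsu1 and Ehbp1, and at Arhgap10 all groups overlap.

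The partners of the 4 genes were examined through the rings of their own host genes. Of 21 other Eph receptors and ephrins 18 were at 0 in all libraries, and 1, the ligand gene Efnb2, could be tested. Its mean was 5.13 ± 8.88 CPM in the controls, 18.4 ± 31.9 with APAP and 49.3 ± 23.0 with dmPGE2+APAP (SD, n = 3), and it did not pass. Without control 3 the control mean of Efnb2 was 7.69 ± 10.9 CPM (SD, n = 2). None of 9 tested Eph signalling partners passed in any of the 3 comparisons (0 of 9 by edgeR). The most read of them, Pik3r1, a regulatory subunit of phosphoinositide kinase, had 492 ± 428 CPM in the controls (738 ± 55.0 without control 3, n = 2), 1055 ± 184 with APAP and 1115 ± 146 with dmPGE2+APAP (SD, n = 3). Its log2 fold change in APAP against control was 0.69 ± 0.39 SE, and 0.45 without control 3, with an adjusted p of 0.908 and 0.913 by edgeR. Vav3, a guanine nucleotide exchange factor, had 450 ± 405 CPM in the controls (216 ± 21.3 without control 3, n = 2) and 409 ± 116 with APAP (SD, n = 3). The Vav3 log2 fold change was 0.65 ± 0.60 SE there, and 0.88 without control 3, with an adjusted p of 1 and 0.913 by edgeR.

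Around Rsu1, 14 hosts of integrin adhesion and the ILK-PINCH-parvin complex were tested and edgeR called 0 in any of the 3 comparisons. In APAP against control, 10 of the 14 had a log2 fold change above 0, where 58.6% of all tested host genes did. Without control 3 it was 9 of 14, where 48.6% of all tested host genes did. Parva, Parvb and Vcl, listed at 0 in the controls, could not fall below 0 in either count. The most read, Tns3, a tensin of focal adhesions, had 1582 ± 235 CPM in control (1455 ± 121 without control 3, n = 2) and 2272 ± 197 CPM in APAP (SD, n = 3). Its log2 fold change was 0.67 ± 0.30 SE, and 0.58 without control 3, with an adjusted p of 0.869 and 0.599 by edgeR. Ptk2, the focal adhesion kinase, had a log2 fold change of -0.35 ± 0.60 SE, and -0.60 without control 3, with an adjusted p of 1 and 0.999 by edgeR. Ilk itself, the kinase-like centre of the complex, was among the genes at 0.

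Around Ehbp1, 10 hosts of EHD and Rab recycling were tested with 0 called, and the EHD genes Ehd1 to Ehd4 were at 0. The most read there were Vps13b, a large lipid transfer protein, and Myo5b, a myosin motor of recycling vesicles. Their log2 fold changes in APAP against control were 0.07 ± 0.38 and -0.37 ± 0.53 SE, and -0.22 and -0.50 without control 3. Among 24 actin and cell cortex hosts edgeR called 0, and the 2 most read had opposite signs. Myo1e, a membrane-bound myosin, had 725 ± 35.2 CPM in the controls (744 ± 18.8 without control 3, n = 2), 1096 ± 195 with APAP and 1268 ± 70.2 with dmPGE2+APAP (SD, n = 3). Rock1, a kinase that activates myosin, had 1200 ± 947 CPM in the controls (653 ± 64.7 without control 3, n = 2), 642 ± 50.0 with APAP and 554 ± 185 with dmPGE2+APAP (SD, n = 3). With dmPGE2+APAP against control the log2 fold change was 0.85 ± 0.37 SE for Myo1e and -0.49 ± 0.44 SE for Rock1, both with an adjusted p of 1 by edgeR. Without control 3 the values were 0.73 for Myo1e and -0.27 for Rock1.

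Over all 2358 host genes, 126, 64 and 100 had a p under 0.05 before adjustment in APAP against control, dmPGE2+APAP against APAP and dmPGE2+APAP against control, and 8, 3 and 4 passed (0.339%, 0.127% and 0.17%). DESeq2 called 13, 1 and 1 and limma-voom 2, 0 and 1. Of the 58 tested hosts in these 5 pathway lists, edgeR, DESeq2 and limma-voom called 0. Before adjustment, 4 of 58 (6.90%) had a p under 0.05 in APAP against control by edgeR, where 5.34% of all host genes had. It was 0 of 58 in dmPGE2+APAP against APAP, where 2.71% had, and 5 of 58 (8.62%) in dmPGE2+APAP against control, where 4.24% had. The 4 were Parva, Parvb, Tns3 and Vcl, and the 5 were Myo1e, Parva, Pik3r1, Tns1 and Vcl, all with a log2 fold change above 0. Parva, Parvb and Vcl were listed at 0 in all 3 controls, so their fitted changes are no bound. They reached the filter through libraries given APAP alone, so their direction against control was fixed beforehand. Without control 3 the 4 in APAP against control were the same genes, where 5.22% of all host genes had such a p. In dmPGE2+APAP against control without control 3, 6 of 58 (10.3%) had such a p, where 3.69% of all host genes had. There Tns3 and Vps13b stood in place of Parva, with Vps13b below 0.

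Cell type markers could be read only through those marker genes that make rings. Hepatocyte markers were read in 12 of 15 genes, and their summed level was 16560 to 19940 CPM in control 1 and 2, 18570 to 21670 with APAP and 16580 to 20140 with dmPGE2+APAP. Sinusoidal endothelial markers were read in 7 of 14 genes, with sums of 1847 to 2078 CPM in control 1 and 2, 780 to 2209 with APAP and 1551 to 1836 with dmPGE2+APAP, and Lyve1, Kdr and Cdh5 were at 0. Markers of the bile duct (1 of 9 genes read), stellate cells (2 of 13), macrophages (1 of 10) and blood leukocytes (2 of 11) were mostly at 0, Krt19, Epcam, Pdgfrb, Clec4f and Ptprc among them. The bile duct sum, which is Pkhd1 alone, was 97.1 to 231 CPM in control 1 and 2, 183 to 331 with APAP and 200 to 464 with dmPGE2+APAP. EdgeR, DESeq2 and limma-voom called 0 of the 21 tested marker hosts in any comparison, and 2, Alb (higher) and Ces1c (lower), had a p under 0.05 before adjustment in APAP against control. The most read marker, Aass, a hepatocyte enzyme of lysine breakdown, had a log2 fold change of 0.31 ± 0.19 SE there, and 0.16 without control 3. Ces1c, a secreted carboxylesterase, had -0.63 ± 0.32 SE, and -0.27 without control 3. The endothelial hosts Mrc1 and F8 had 0.09 ± 0.36 and -0.98 ± 0.68 SE, and -0.07 and -0.90 without control 3. Of the 6 tested endothelial hosts, 2 had a log2 fold change above 0 in APAP against control, where 58.6% of all tested host genes did. Without control 3 it was 0 of 6, where 48.6% of all tested host genes did. The part of cell composition in the 4 hosts' values was not tested.

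The host genes whose ring sums varied most like each member were found by Pearson's r of log2 CPM over the 8 deeper libraries, among 2358 host genes. These r are descriptions, since the libraries share their groups. For Epha2 they were Fars2 (r = 0.94), Srcap;Gm42715 (0.94) and Klc2 (0.92). For Arhgap10 they were Fbxw4 (0.93), Csnk1g3 (0.91) and Slc44a1 (0.90). For Rsu1 they were Neat1 (0.95), Trpc6 (0.92) and Fam120a (0.90), and for Ehbp1 Jcad (0.93), Trpc6 (0.92) and Pde4d (0.92). Trpc6 was listed for both Rsu1 and Ehbp1, with 0 and 46.2 CPM in control 1 and 2, 340, 448 and 419 with APAP and 133, 50.5 and 87.1 with dmPGE2+APAP. Fars2, nearest to Epha2, had 388 and 369 CPM in the controls, 515, 630 and 592 with APAP and 597, 565 and 653 with dmPGE2+APAP.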

How the data were processed

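Per the file headers, the deposited table gave the count of back-splice reads of every circRNA in each of 9 libraries beside its coordinates and host. The authors left these counts unscaled. Strand-marked libraries were built from 1 µg of total liver RNA after removal of ribosomal RNA, per the labels' protocols, which mention no enzyme against linear RNA. Per the submitters' processing notes, HISAT2 and GRCm38 (mm10) were used; the circRNA caller is not given in the sources used here. In the table, 6 count columns carry sample titles, and 3 columns headed BC were taken as the controls by elimination, so control numbers are only names. Non-junction reads came as lists; 9559 were usable and 1753 were not. Deposited junction lists and counts differed in 0 of 37463 items.

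Reads were kept per ring and summed per host gene. CPM divides by a library's back-splice total. Features with at least 5 reads in at least 3 libraries were fitted over all 9 libraries with edgeR 4.0.16 in R 4.3.3 (TMM, quasi-likelihood F test, Benjamini-Hochberg over all tested features, threshold 0.05), which was tested on simulated data. TMM factors were 1.67 for control 3 and 0.91 to 0.98 for the other libraries (host sums). Alternatives were DESeq2 1.42.0, limma-voom (limma 3.58.1), library totals without TMM, no filter, leaving out each library, and a replicate block. Non-junction reads were compared as log2(reads per 1000000 + 1) by exact permutation tests. Ring edges were placed on GENCODE M21 exons. The rule for named host genes took the 4 members, their 3 nearest by correlation, any list gene that passed and the 2 most read tested hosts of each list. Parva, Parvb, Tns1, Vcl and Alb fall outside it and are named after their values were seen, as are list genes at 0. The members and lists were chosen with earlier results of these data known. The result of 1 further gene list is not reported here.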

Additional observations from a re-analysis of the deposited data

How the results depend on the processing

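In dmPGE2+APAP against APAP the members' host sums kept their direction and 0 of 4 passed under every alternative run. Against control they kept theirs. Counts of called features moved. For host sums, APAP against control gave 8 calls, 13 with DESeq2, 2 with limma-voom and 4 to 8 when single libraries were left out. For dmPGE2+APAP against APAP it was 3 calls, 1 with DESeq2, 0 with limma-voom, 6 with no filter, 5 with the replicate block and 0 to 6 without single libraries (0 without APAP 1, 6 without dmPGE2+APAP 1). For dmPGE2+APAP against control it was 4 calls, 1 with DESeq2, 1 with limma-voom and 2 to 6 without single libraries. For rings, APAP against control gave 6 calls, 14 with DESeq2, 12 without TMM and 3 to 10 without single libraries. For dmPGE2+APAP against APAP it was 3 calls, 0 with DESeq2, 0 with limma-voom, 9 with no filter and 1 to 3 without single libraries. For dmPGE2+APAP against control it was 5 calls, 1 with DESeq2, 10 without TMM, 2 with limma-voom, 12 with no filter and 4 to 8 without single libraries. The cause was not tested. The replicate numbers of APAP and dmPGE2+APAP did not pair the libraries (correlations of same-numbered libraries between -0.002 and 0.014 for host sums, and not every library correlated best with its own number), and the control columns could not be tied to labelled numbers. The replicate block, with number effects for the 6 treated libraries alone, gave 0 of 4 members called in dmPGE2+APAP against APAP, and its calls over all features were 6, 5 and 4 for host sums and 5, 3 and 4 for rings in the 3 comparisons.

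Leaving out single libraries moved the Arhgap10 log2 fold change in APAP against control from 1.67 to between 1.46 and 2.03 (2.03 without control 1), and that in dmPGE2+APAP against control from 0.87 to between 0.68 and 1.23 (1.23 without control 1). That of novel_circ_0013830 in dmPGE2+APAP against control, 0.22, ranged from -0.33 to 0.85. The non-junction difference of Rsu1 between APAP and control, 0.025, was -0.026 with unscaled reads and -0.15 to 0.14 without single libraries. That of Ehbp1, 0.22, ranged from -0.57 without control 2 to 1.00 without control 3. The median log2 fold change of all host genes in APAP against control was 0.15, 0.08 without TMM and -0.06 with limma-voom. Depth limits Rsu1 most, with at most 51 reads a library, and control 3 has at most 3 reads for any member host.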
